A study of Arabidopsis thaliana with 12 samples.

Results

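AT5G48570 and AT5G51440 are heat shock genes of Arabidopsis thaliana, described here in seedlings grown at 2 temperatures. They were chosen by locus: every probe set (the group of short probes that reports 1 transcript on the array) whose single annotated gene is one of them was taken. That gave 1 probe set each, for 2 genes of 13356 with a name among 22746 probe sets tested. Both genes were picked with their levels on these arrays already known, so their own levels and differences are given as a description, with no test.

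The study compared the mutant pft1-1 with the wild type Columbia (WT). It has 4 groups of 3 biological replicates, with 1 array each, 12 arrays in all: pft1-1 at 23C, pft1-1 at 16C, WT at 23C and WT at 16C. The mutant was in the Columbia background and is represented by a single line. It affects PFT1, also called MED25, a subunit of Mediator, which relays signals from transcription factors to RNA polymerase. All seedlings were 10 days old and had grown on agar plates under continuous white fluorescent light at 80 micromoles per second and square metre. Values are log2 levels per probe set after the authors' normalisation, so a difference of 1 is a doubling on the linear scale. Precision is limited by having 3 arrays a group. The 3 replicates of a group are lettered A, B and C.

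The heat shock response protects plant cells from protein damage. Heat shock transcription factors bind heat shock elements in promoters and switch on chaperones, the proteins that hold or refold unfolded proteins. AT5G48570, also named ROF2 or FKBP65, is an FKBP-type immunophilin, an enzyme of the peptidyl-prolyl isomerase class that works beside the large chaperone HSP90, and it is known in Arabidopsis as induced by heat. AT5G51440 belongs to the small heat shock protein family, chaperones that hold unfolding proteins and keep them from clumping. The temperatures compared here are growth temperatures and not a heat shock.

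The arrays of letter C stood apart in their control probe sets. For Arabidopsis control transcripts probed at both ends, the level at the 3' end exceeded that at the 5' end by 3.52 to 4.53 (log2) on the 4 letter C arrays. On the 8 remaining arrays this gap, which grows as RNA is degraded or copied incompletely, was 2.64 to 3.07. Spiked bacterial control transcripts averaged 4.57 to 8.72 (log2) on the letter C arrays and 2.45 to 2.54 on the others. The widest gap, 4.53, was that of replicate C of pft1-1 at 23C, which also gave the highest level of both genes. The part of these measures in the results was not tested. Of the 24 tissue markers listed, 3 were measured. RCA, the activase of the carbon-fixing enzyme in leaves, had group means of 14.50 to 14.72. Both root markers had lower means at 23C than at 16C, and their part in the results was not tested. The root glucosidase PYK10 averaged 11.85 ± 0.44 in pft1-1 at 23C and 12.78 ± 0.41 in pft1-1 at 16C, and 12.47 ± 0.28 in WT at 23C and 13.05 ± 0.17 in WT at 16C (SD, n = 3 each). Its highest array at 23C and lowest at 16C were 12.28 and 12.34 in pft1-1, and 12.79 and 12.92 in WT. The root hair expansin EXPA7 averaged 2.21 ± 0.15 in pft1-1 at 23C and 3.99 ± 1.52 in pft1-1 at 16C, and 2.03 ± 0.01 in WT at 23C and 3.26 ± 1.87 in WT at 16C (SD, n = 3 each). Its arrays overlapped in both genotypes, and 3 of the 6 arrays at 16C, replicates A and B of pft1-1 and A of WT, were above 4. Other shoot, root, flower and seed markers were not analysed here. In RNA from seedlings, fewer cells of a type and less RNA per cell cannot be told apart.

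AT5G48570 was high at 23C and low at 16C in both genotypes. In pft1-1 at 23C its level was 7.75, 5.87 and 8.64 in replicates A, B and C, and in pft1-1 at 16C it was 4.88, 5.19 and 4.83. In WT at 23C it was 6.49, 6.68 and 6.44, and in WT at 16C it was 4.60, 4.48 and 4.66. At either genotype all 3 arrays of 23C lay above all 3 arrays of 16C. The 23C minus 16C difference was 2.45 (SE 0.55) in pft1-1, a 5.47-fold difference of the group means. In WT it was 1.95 (SE 0.55), or 3.87-fold. SE is limma's moderated standard error from a model with 1 residual variance for all 4 groups. The SD of AT5G48570 was 1.42 in pft1-1 at 23C and 0.09 to 0.19 in the other groups. The shared SE is thus too narrow for pft1-1 at 23C and too wide for comparisons without it.

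AT5G51440 differed more between the temperatures. In pft1-1 at 23C its level was 7.04, 5.50 and 8.84 in replicates A, B and C, against 3.09, 2.66 and 2.77 in pft1-1 at 16C. In WT at 23C it was 6.55, 5.88 and 6.56, against 2.74, 2.72 and 2.71 in WT at 16C. Again no array of 23C overlapped with one of 16C. The difference was 4.28 (SE 0.67) in pft1-1 and 3.61 (SE 0.67) in WT, or 19.5-fold and 12.2-fold. At 16C all 6 arrays stood between 2.66 and 3.09, close to the lower quartile of all values on the arrays, 2.52. The files give no detection calls, so the level at 16C may be no more than background, and these folds may be too small.

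**Figure D1:**
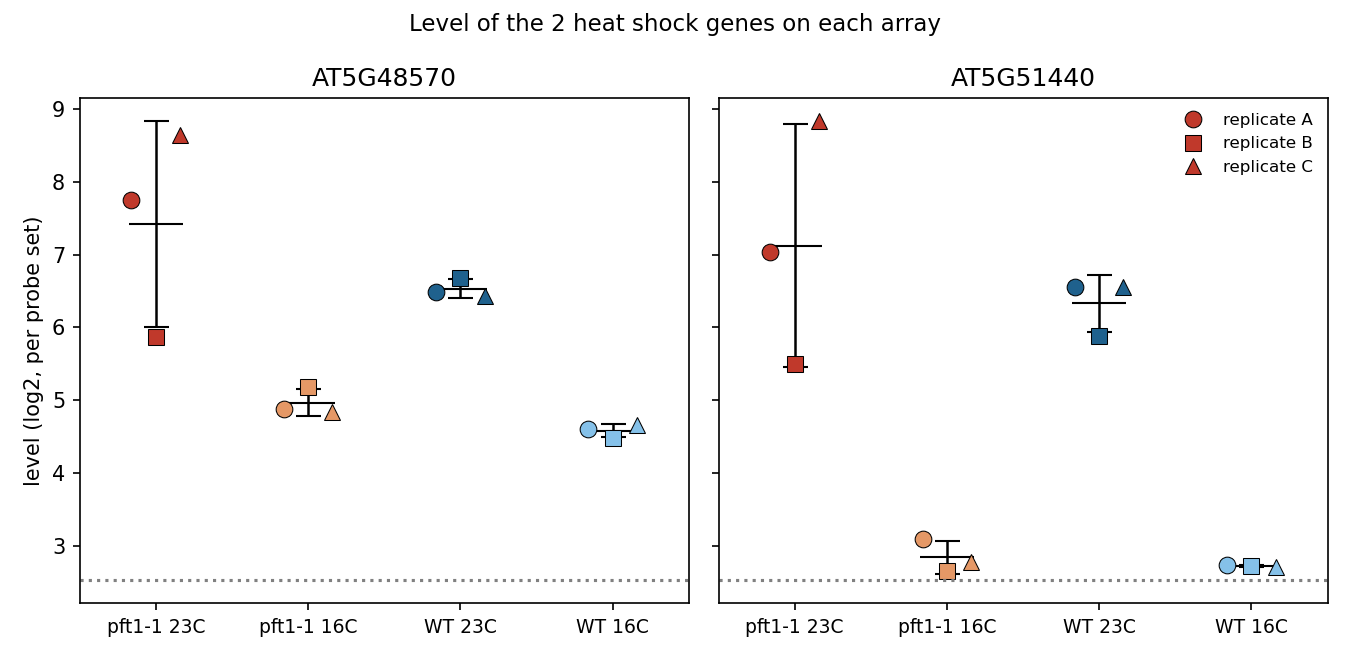
Level (log2, per probe set) of AT5G48570 (left) and AT5G51440 (right) on each of the 12 arrays, with 1 point per array, the group mean as a bar and the SD as whiskers (n = 3). The dotted line is the lower quartile of all values, 2.52. All points of 23C lie above those of 16C in the same genotype, and the 3 pft1-1 arrays at 23C spread from 5.50 to 8.84 for AT5G51440.

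Among all 22746 probe sets, AT5G51440 ranked 17th in pft1-1 and 8th in WT by the size of the rise from the cooler to the warmer temperature, and AT5G48570 ranked 145th and 78th in the same genotypes. Both genes had groups that did not overlap, 2 of 2 in each genotype. Over all probe sets, 32% had all pft1-1 arrays at 23C above all those at 16C, and 15.3% had this in WT. Since both genes were picked with these values known, nothing is read from their count.

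The order of the group means was the same for both genes: pft1-1 at 23C, WT at 23C, pft1-1 at 16C, WT at 16C. AT5G48570 averaged 7.42 ± 1.42, 6.53 ± 0.13, 4.97 ± 0.19 and 4.58 ± 0.09 in that order (SD, n = 3 each). AT5G51440 averaged 7.12 ± 1.67, 6.33 ± 0.39, 2.84 ± 0.22 and 2.72 ± 0.01 (SD, n = 3 each). The step between the 23C groups and the 16C groups was the 1 place in this order where arrays did not overlap for both genes. The neighbours pft1-1 and WT at 23C overlapped for both genes (4.2% of all probe sets had every pft1-1 array higher there). At 16C pft1-1 and WT overlapped for AT5G51440 but not for AT5G48570, whose pft1-1 arrays were all higher, as in 4.31% of all probe sets.

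The differences between genotypes at 23C were small beside the spread of the pft1-1 arrays there. At 23C pft1-1 minus WT was 0.89 (SE 0.55) for AT5G48570 and 0.79 (SE 0.67) for AT5G51440. At 16C it was 0.39 (SE 0.55) for AT5G48570 and 0.11 (SE 0.67) for AT5G51440. These SE include the spread of pft1-1 at 23C. The SD at 16C was 0.19 in pft1-1 and 0.09 in WT for AT5G48570, and 0.22 and 0.01 for AT5G51440. The difference at 23C moved with single arrays of pft1-1. Without replicate C of pft1-1 it was 0.27 for AT5G48570 and -0.06 for AT5G51440, and leaving out B in place of C gave 1.66 and 1.61. The temperature difference was larger in pft1-1 than in WT by 0.50 (SE 0.78) for AT5G48570 and by 0.68 (SE 0.94) for AT5G51440. Without replicate C of pft1-1 at 23C these values were -0.11 and -0.18.

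Values within each letter show the same spread. For AT5G48570 the 23C minus 16C difference in letters A, B and C was 2.86, 0.68 and 3.81 in pft1-1, and 1.88, 2.20 and 1.78 in WT. For AT5G51440 it was 3.95, 2.84 and 6.06 in pft1-1, and 3.81, 3.16 and 3.85 in WT. All 12 of these differences were positive. By contrast, pft1-1 minus WT at 23C in letters A, B and C was 1.26, -0.81 and 2.21 for AT5G48570 and 0.48, -0.39 and 2.28 for AT5G51440, so letter B had the opposite sign for both genes.

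The 2 genes varied together on the arrays of 23C. In pft1-1 at 23C replicate C was highest, A next and B lowest for both. The SD of the 3 arrays was 1.42 for AT5G48570 and 1.67 for AT5G51440 in pft1-1 at 23C, against 0.13 and 0.39 in WT at 23C. Over the 6 arrays at 23C Pearson's r was 0.93 and Spearman's rho 0.77. Without replicates C and A of pft1-1, the arrays farthest from the median of AT5G48570, r was 0.58 over 4 arrays, so the relation rests largely on these. Over the 6 arrays at 16C r was 0.08 and rho -0.03 (r = 0.76 over 4 arrays without replicate B of each genotype), where AT5G51440 is near the low end of the scale. These are descriptions of arrays that share a hybridisation and its quality, and no p is given.

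**Figure D2:**
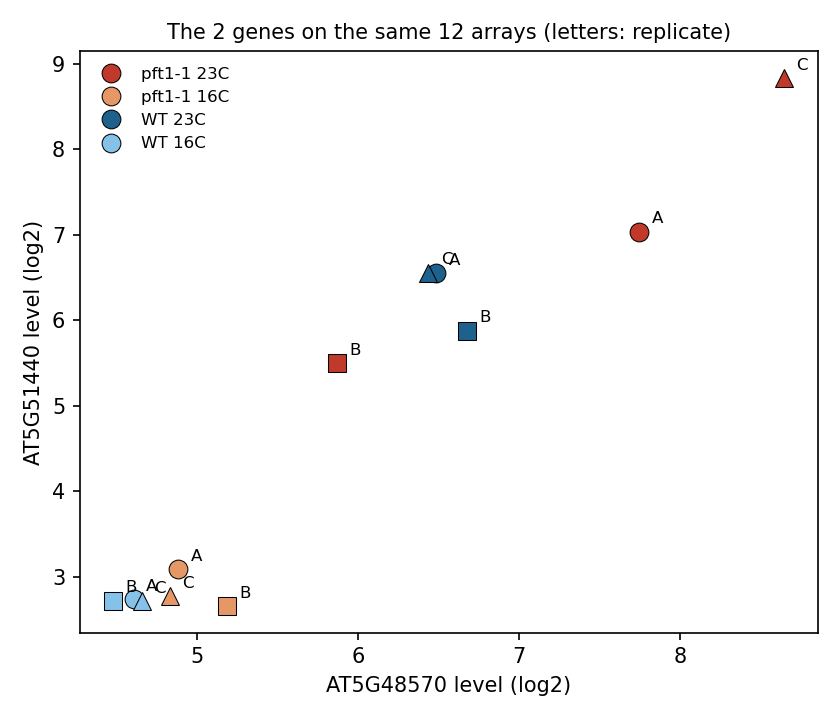
Level (log2) of AT5G48570 on the horizontal axis and of AT5G51440 on the vertical axis, 1 point per array, with the group as colour and the replicate as letter. The 16C arrays lie together at the lower left, and the pft1-1 arrays at 23C spread along the diagonal on both sides of the WT arrays at 23C.

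Replicate C of pft1-1 at 23C was high in many other probe sets too. Of 30 other measured heat genes (the lists are given next), 19 (63.3%) had their highest level of the 3 pft1-1 arrays at 23C on replicate C, against 53.4% of all probe sets.

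Other genes of heat and chaperone biology were taken from 6 lists of 117 loci, with the 2 described genes left out of every count. Besides these, 30 loci had a named probe set: 8 small heat shock proteins, 10 FKBP immunophilins, 3 HSP70, HSP90 or HSP100 chaperones, 3 DnaJ, HSP60 or HSP10 chaperones, 6 further heat-responsive genes and 0 heat shock transcription factors. Loci shown by number alone were put in their family from general knowledge of Arabidopsis. Calls were made in limma over all 22746 probe sets, where the Benjamini-Hochberg adjusted p was under 0.05.

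At 23C against 16C, 6 of the 30 genes rose in pft1-1 (20%), against 8.41% of all probe sets, and 1 fell (3.33%), against 9.27%. In WT 4 rose (13.3%), against 1.74% of all probe sets, and 0 fell, against 3.15%. Counting in both directions, 14 of the 30 had an unadjusted limma p under 0.05 in pft1-1 (all probe sets 32.3%) and 11 in WT (18.7%). The median 23C minus 16C difference of the 30 was 0.22 in pft1-1 and 0.11 in WT, against 0.04 and 0.02 over all probe sets. These medians lay far below the differences of 4.28 and 3.61 seen for AT5G51440. Since that gene was picked with its values known, nothing is read from this distance.

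Of the 8 other small heat shock proteins, 2 rose in both genotypes and 0 fell. AT2G19310 averaged 9.16 ± 0.75 in pft1-1 at 23C and 6.55 ± 0.28 in pft1-1 at 16C (SD, n = 3 each), a difference of 2.60 (SE 0.31, limma adjusted p = 0.00139). In WT it averaged 8.73 ± 0.14 at 23C and 6.43 ± 0.06 at 16C (SD, n = 3 each), a difference of 2.30 (SE 0.31, limma adjusted p = 0.00601). Since its spread was largest in pft1-1 at 23C, the shared SE is too narrow there and too wide for WT. With the compared arrays alone the limma adjusted p of AT2G19310 was 0.0214 in pft1-1 and 0.0044 in WT. AT4G21870 rose by 2.34 in pft1-1 (SE 0.24, limma adjusted p = 0.00089) and by 1.34 in WT (SE 0.24, limma adjusted p = 0.0171). Its pft1-1 arrays at 23C did not follow the order seen in AT5G51440: replicate A stood at 9.34, B at 9.20 and C at 8.78.

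The remaining small heat shock proteins did not pass in the main fit. AT1G53540 passed in pft1-1 without WT replicate A at 23C (limma adjusted p = 0.00502) and with the compared arrays alone (limma adjusted p = 0.0389). Its pft1-1 means were 2.66 at 23C and 2.21 at 16C, near the low end of the scale. AT5G37670 passed in pft1-1 without replicate A at 16C of pft1-1 or of WT (limma adjusted p = 0.0496 and 0.0442), and with quantile normalisation repeated (limma adjusted p = 0.0459). The differences of AT1G54050 were 0.94 (SE 0.55) in pft1-1 and 0.52 (SE 0.55) in WT, those of AT5G37670 0.70 and 0.05 (SE 0.25 each), those of AT1G53540 0.45 and 0.61 (SE 0.40 each) and those of AT2G29500 0.29 and 1.28 (SE 0.50 each), pft1-1 first in each pair. ATHSP22.0 and AT1G52560 averaged under 2.52 in every group, where a small change would not be detectable. AT5G51440 is the gene of this family with the largest 23C minus 16C difference among the 9 measured, in both genotypes, a place that its selection may have fixed.

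Of the 10 FKBP immunophilins other than AT5G48570, 1 (10%) rose in pft1-1, against 8.41% of all probe sets, a share near the background. In WT 0 rose, and 0 fell in either genotype. At an unadjusted limma p under 0.05 there were 4 of 10 in pft1-1, against 32.3% of all probe sets, and 3 of 10 in WT, against 18.7%. AT4G26555 averaged 7.90 ± 0.09 in pft1-1 at 23C and 6.89 ± 0.10 in pft1-1 at 16C (SD, n = 3 each), a difference of 1.01 (SE 0.16, limma adjusted p = 0.00443). In WT its difference was 0.68 (SE 0.16), with a limma adjusted p of 0.0502, and of 0.0456 with the letters as replicate block. The list's median difference was -0.22 in pft1-1 and 0.08 in WT. In pft1-1 the lowest were AT3G10060 at -0.80 (SE 0.30), AT1G73655 at -0.74 (SE 0.28) and AT3G55520 at -0.64 (SE 0.36), and in WT these had values of 0.00, -0.15 and -0.52. AT2G43560 had -0.41 (SE 0.17) in pft1-1 and 0.10 in WT, AT3G60370 -0.35 and -0.39 (SE 0.26 each), and AT1G20810 -0.09 and 0.06 (SE 0.15 each). Positive values that did not pass in either genotype were those of AT3G12340 (0.36 in pft1-1 and 0.16 in WT), AT1G18170 (0.29 and 0.56) and AT5G05420 (0.29 and 0.57). In WT, AT1G18170 passed without replicate A of pft1-1 at 23C, with medians set equal or with array quality weights (limma adjusted p = 0.00854, 0.0405 and 0.0112). AT5G05420 passed in WT without WT replicate B at 23C (limma adjusted p = 0.0399). AT3G60370 fell in WT with those weights (limma adjusted p = 0.0288). AT1G73655 fell in pft1-1 with letter C dropped or without replicate C of pft1-1 at 16C (limma adjusted p = 0.0397 and 0.0276).

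Co-chaperones are proteins that work with HSP70 and HSP90. In pft1-1, 1 DnaJ gene and 1 HOP gene among them rose more than AT5G48570 (2.45) and less than AT5G51440 (4.28). In WT the difference of the DnaJ gene also lay between those of the 2 described genes (1.95 and 3.61). AT2G20560, of the DnaJ family that delivers substrates to HSP70, averaged 6.54 ± 1.11 in pft1-1 at 23C and 2.58 ± 0.13 in pft1-1 at 16C (SD, n = 3 each). Its difference was 3.96 (SE 0.45, limma adjusted p = 0.00116) in pft1-1 and 2.46 (SE 0.45, limma adjusted p = 0.0192) in WT. Hop3, which bridges HSP70 and HSP90, averaged 6.25 ± 1.56 in pft1-1 at 23C and 3.02 ± 0.31 in pft1-1 at 16C (SD, n = 3 each), a difference of 3.23 (SE 0.64, limma adjusted p = 0.00975). In WT its difference of 1.93 (SE 0.64) did not pass (limma adjusted p = 0.134). The SD of Hop3 was 0.48 in WT at 23C and 0.05 in WT at 16C, so the shared SE is too wide for WT. With the compared arrays alone Hop3 passed in WT and not in pft1-1, so no genotype contrast is read from these calls. AT2G20560 had SD of 0.20 and 0.24 in WT at 23C and 16C. With the compared arrays alone its limma adjusted p was 0.0183 in pft1-1 and 0.0113 in WT. The Hop3 relatives Hop1 and Hop2 had differences of -0.30 and 0.15 in pft1-1 and -0.33 and 0.12 in WT, and none of these passed in the main fit. Hop1 fell in WT with array quality weights (limma adjusted p = 0.0249).

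Of the 3 genes listed with the HSP70, HSP90 and HSP100 chaperones, 1 rose in both genotypes. AT3G09440, a cytosolic HSP70, had differences of 1.13 (SE 0.32, limma adjusted p = 0.0392) in pft1-1 and 1.36 (SE 0.32, limma adjusted p = 0.046) in WT. Hsp70-2 had 0.95 (SE 0.43) in pft1-1 and 1.37 (SE 0.43, limma adjusted p = 0.117) in WT, where it passed with the letters as replicate block (limma adjusted p = 0.046). CLPB2 averaged under 2.52 in every group. AT4G02450, an HSP90 co-chaperone of the p23 type, fell by 0.74 in pft1-1 (SE 0.16, limma adjusted p = 0.0155) and had a value of -0.35 in WT that did not pass. ATERDJ3B, a DnaJ protein of the endoplasmic reticulum, had -0.66 (SE 0.23, limma adjusted p = 0.0763) in pft1-1, and a limma adjusted p of 0.0464 with the letters as replicate block. The second listed DnaJ gene, AT4G28480, had -0.15 and 0.06 (SE 0.06 each) in pft1-1 and WT, BOB1 -0.37 and -0.40 (SE 0.21 each), and HSA32, known for its role in heat tolerance, 1.01 and 0.38 (SE 0.46 each). None of these passed in the main fit. In pft1-1, HSA32 passed without replicate B of pft1-1 at 23C (limma adjusted p = 0.0474). AT4G28480 fell in pft1-1 with quantile normalisation repeated (limma adjusted p = 0.0424).

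**Figure D3:**
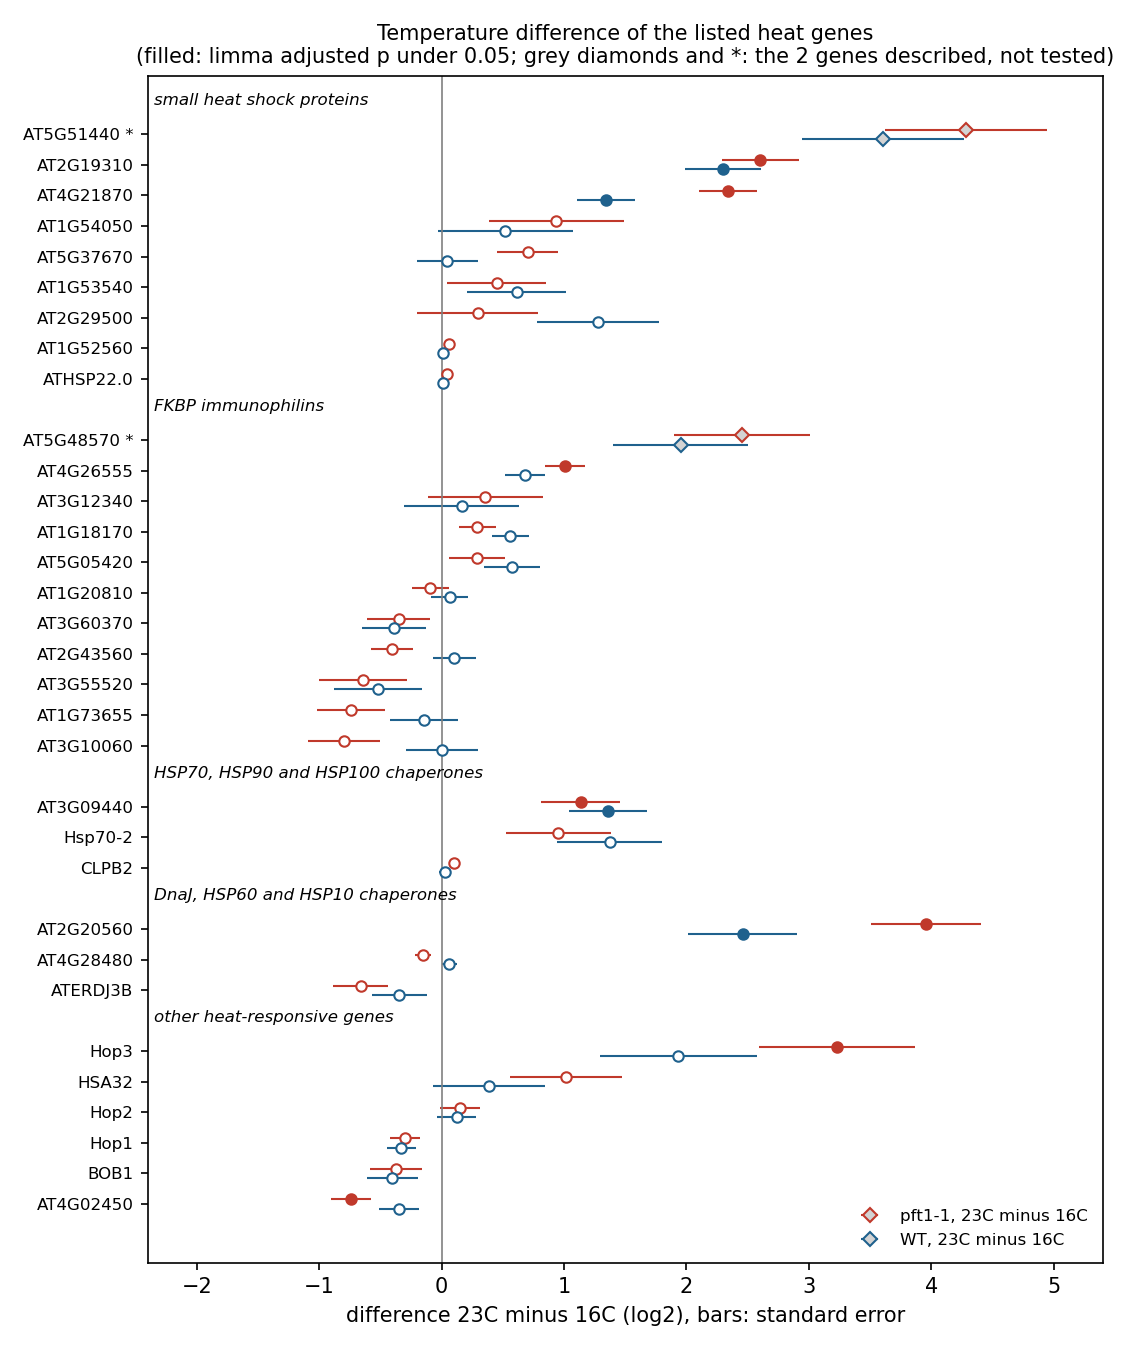
Difference of 23C minus 16C (log2) in pft1-1 (red) and in WT (blue) for the 32 measured genes of the heat lists, grouped by list, with limma's standard error as bars. Filled circles passed a limma adjusted p under 0.05, open circles did not, and grey diamonds mark AT5G51440 and AT5G48570, which were not tested. Large rises sit with AT5G51440, AT2G20560, Hop3, AT2G19310, AT5G48570 and AT4G21870, and 9 of the 10 other FKBP genes have open circles in both genotypes.

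Some of these calls were lost in other settings. With letter C left out, which also leaves fewer arrays, the limma adjusted p in pft1-1 was 0.0691 for Hop3, 0.152 for AT3G09440 and 0.169 for AT4G02450, and in WT it was 0.0635 for AT2G20560 and 0.121 for AT3G09440. The WT differences themselves were then 2.46 for AT2G20560 and 1.42 for AT3G09440, against 2.46 and 1.36 with all arrays. In WT the calls of AT2G20560 and AT4G21870 were each lost when WT replicate B at 16C, C at 16C or A at 23C was left out, with 1 gene of the 30 then called. AT4G21870 also lost its WT call without WT replicate B at 23C, and with the compared arrays alone (limma adjusted p = 0.0691). AT4G02450 lost its pft1-1 call without replicate C of pft1-1 at 16C (limma adjusted p = 0.0504) or at 23C (limma adjusted p = 0.0509). AT3G09440 kept its call in 12 of 21 settings in pft1-1 and 7 of 21 in WT. Hop3 passed in WT without replicate B (limma adjusted p = 0.0343) or C (limma adjusted p = 0.0393) of pft1-1 at 23C, and with array quality weights (limma adjusted p = 0.0103). The estimation of these weights gave a convergence warning. In the fit of the compared arrays alone Hop3 passed in WT (limma adjusted p = 0.049) and not in pft1-1 (limma adjusted p = 0.0652). AT2G19310 kept its call in both genotypes in all 21 other settings.

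Between genotypes 0 of the 30 other heat genes were called in limma at 23C (background 0.022%) or at 16C (background 0.0352%), and 1 and 3 had an unadjusted p under 0.05, against 7.6% and 4.62% of all probe sets. For the difference of the temperature responses, pft1-1 minus WT, 0 of 30 were called (background 0%), and 3 had an unadjusted p under 0.05 (background 5.54%). AT2G20560 had pft1-1 minus WT values of 1.39 (SE 0.45, limma adjusted p = 0.512) at 23C and -0.11 (SE 0.45) at 16C. AT4G21870 had a value of -1.01 (SE 0.24, limma adjusted p = 0.408) at 16C, and passed there in the fit that blocks on letter C (limma adjusted p = 0.0346). The response of Hop3 to temperature differed between pft1-1 and WT by 1.295 (SE 0.90) and that of AT2G20560 by 1.497 (SE 0.63, limma adjusted p = 0.888), so a larger response in pft1-1 did not pass for either.

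The genes whose levels went most like those of the described genes were found by Pearson's r over the 12 arrays, among 7345 probe sets with 1 gene in the upper 60% by mean. For AT5G48570 these were Hop3 (r = 0.967), AT5G51440 (0.963), AT2G20560 (0.963), AT3G24100 (0.956) and AT5G51170 (0.953). For AT5G51440 they were AT2G19310 (r = 0.988), nad9 (0.985), AT2G20560 (0.983), nad1 (0.979) and AT3G24100 (0.975). AT2G20560 and AT3G24100 stood on both lists. nad9 and nad1 are genes of the mitochondrial genome for subunits of respiratory complex I. Their 23C minus 16C differences were 2.53 and 3.88 in pft1-1 and 2.43 and 2.92 in WT.

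These values include the temperature difference that the genes share. With the 4 group means removed, which leaves the spread among replicates, r with AT5G51440 was 0.971 for AT2G20560, the highest of all 7345, 0.941 for AT3G24100 and 0.821 for nad1, which then ranked 102nd. With AT5G48570 it was 0.925 for AT2G20560, 0.909 for Hop3 and 0.893 for AT5G51440. The replicates that carry this spread are those of pft1-1 at 23C. AT2G20560 stood at 6.57, 5.41 and 7.64 there in replicates A, B and C, against 5.34, 4.93 and 5.18 in WT at 23C. Hop3 stood at 6.31, 4.66 and 7.77 in pft1-1 at 23C, against 5.76, 4.83 and 5.07 in WT at 23C. Since both were picked for their likeness on these arrays, nothing is read from the order of their replicates.

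**Figure D4:**
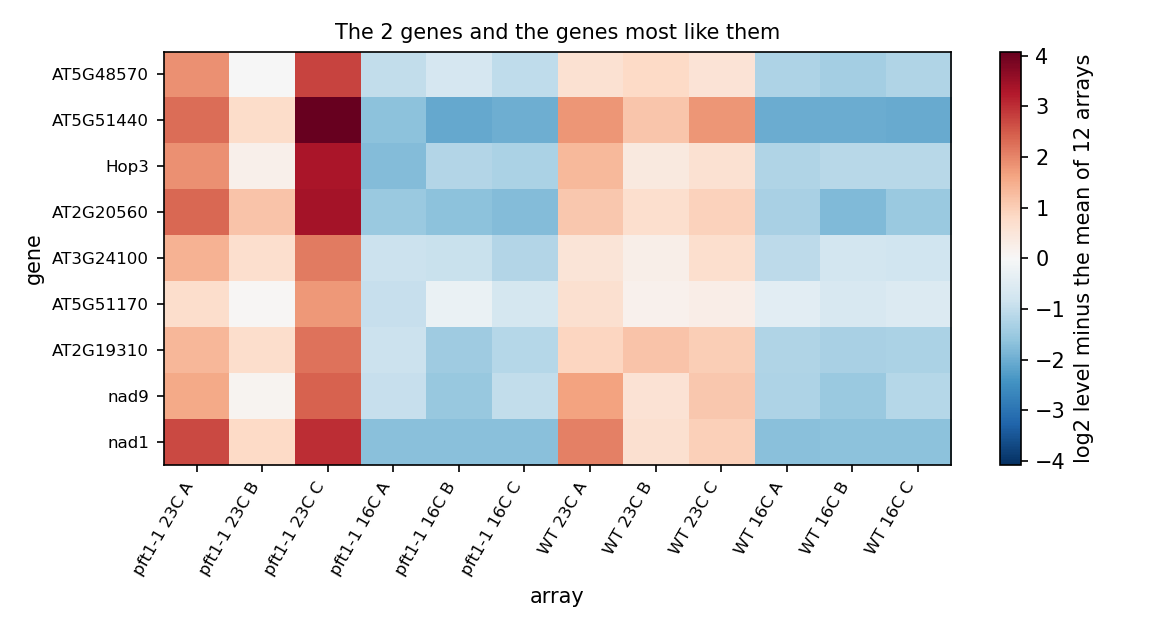
Level of the 2 genes and of the genes most like them on each of the 12 arrays, as the log2 level minus the gene's mean over all arrays (red higher, blue lower). The 23C arrays are higher than the 16C arrays in both genotypes, and among the pft1-1 arrays at 23C replicate C is the highest and replicate B the lowest in every gene shown. Nothing is read from these patterns, since the genes were picked for likeness on these arrays. Of all probe sets, 53.4% were highest on that replicate C and 51.8% lowest on that replicate B.

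Genes of mitochondrial stress, a separate list of 11 loci with 3 measured, did not follow AT5G51440. NDB2, an alternative NAD(P)H dehydrogenase of mitochondria, fell by 2.44 in pft1-1 (SE 0.31, limma adjusted p = 0.0018) and fell by 1.44 in WT (SE 0.31, limma adjusted p = 0.0354) at 23C against 16C. AT2G21640 had values of -0.26 and 0.21 (SE 0.61 each) and AT5G09570 of -0.47 and 0.00 (SE 0.34 each) in pft1-1 and WT, and none passed. The reference genes PEX4 and AT4G34270 had differences of 0.08 and 0.05 in pft1-1 and -0.11 and -0.13 in WT. In the gene table of the TAIR10.1 assembly AT5G48570 lies between AT5G48560 and AT5G48575, and AT5G51440 between EYE and RIN3. These neighbours were not analysed here, as none has a named probe set in the annotation used.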

How the data were processed

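Total RNA (5 ug per sample) from seedlings was labelled with biotin and hybridised to 12 one-colour Affymetrix arrays, per the labels' protocols. The deposited table holds log2 levels per probe set, normalised and summarised by the authors. RMA and affy are named, without versions, in the submitters' processing notes. For the probe definition, the genome build and the hybridisation dates, the sources used here say nothing. There were 22810 probe sets. After 64 control probe sets were set aside, 22746 were tested without a filter. Of these 13513 carried 1 gene in the annotation used, 503 several and 8730 none, and 13436 were matched to the gene table. No 2 arrays were identical (0 pairs).

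Genes were fitted in limma 3.58.1 under R 4.3.3 (lmFit and eBayes, 4 group means, 8 residual degrees of freedom), with p-values adjusted over all probe sets. Tables were made with Python 3.11.15, pandas 2.3.3 and numpy 2.4.6, and plots with matplotlib 3.10.9. The steps were tested on simulated data: of 50 probe sets with a change of 2 in pft1-1 by temperature among 22746, 76% were called. Changes of 1, 3 and 4 gave 64%, 96% and 98%. The simulated noise had the same SD in all groups and no letter effect. These shares therefore do not describe recovery for genes with a wider spread in pft1-1 at 23C. The described genes, the lists and the alternatives were chosen with earlier results of these data known. Named were every measured small heat shock protein and FKBP gene, up to 4 called genes of each other list and the 5 genes most like each described gene. The remaining listed genes were named outside this rule, after their values were seen.

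Sample titles give the letters, and RNA was prepared independently for each sample. Deviations from the group means of arrays sharing letter A, B or C correlated at 0.200, 0.196 and 0.339 for temperature in pft1-1, 0.421, 0.274 and 0.529 in WT, and 0.129, 0.473 and 0.158 for genotype at 23C, but at 0.357, -0.101 and 0.474 for genotype at 16C. The letters were thus taken to pair arrays except in the last comparison, but the main fit did not use this pairing. SE and p-values given are from that unpaired fit unless a setting is named. The pairing entered as an alternative, the replicate block. Alternatives were leaving out each array in turn, weights for array quality, medians set equal, quantile normalisation repeated, a filter to the upper 60% by mean, an intensity trend in eBayes, a fit of the compared arrays alone, dropping letter C, and blocks for all letters or for letter C. The planned search for sequence motifs was not made, and no sequences are used here.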

Additional observations from a re-analysis of the deposited data

How the results depend on the processing

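Of the alternative values for the differences of AT5G48570 and AT5G51440, 175 moved by less than 1 residual SD (0.719 for AT5G48570, 0.865 for AT5G51440), and 5 moved further. Many of the 175 could not move. In this balanced design a block leaves each difference unchanged, and so does leaving out an array of a group not compared. The count is therefore no measure of stability. The genotype differences of AT5G51440, 0.79 at 23C and 0.11 at 16C, changed sign in some settings. So did the difference of responses of both genes. With letter C dropped, the temperature difference of AT5G51440 in pft1-1 was 3.39, and for AT5G48570 the response in pft1-1 minus that in WT turned to -0.27, against 0.50 with all arrays. With array quality weights this was -0.07, and for AT5G51440 it was -0.09 with letter C dropped. Leaving out each array in turn gave ranges for AT5G48570 of 1.84 to 3.23 (temperature in pft1-1), 1.88 to 2.001 (temperature in WT), 0.27 to 1.66 (genotype at 23C), 0.28 to 0.45 (genotype at 16C) and -0.11 to 1.28 (difference of responses). For AT5G51440 they were 3.43 to 5.10, 3.49 to 3.83, -0.06 to 1.61, -0.01 to 0.21 and -0.18 to 1.49 in the same order. The lowest and highest values of both temperature differences in pft1-1 came from leaving out pft1-1 replicates C and B at 23C.

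Of the alternative counts over the 30 other heat genes, 98 stayed within 1.5 times and 6 moved further. In WT, 4 genes were called by temperature with all arrays, 2 with letter C dropped, 9 with array quality weights, and 1 to 4 without single arrays. Over all probe sets the calls in WT were 1112 with all arrays, 481 with letter C dropped and 4295 with the weights. The estimation of the weights gave a convergence warning. At 16C, letter C as a block gave 1 gene between genotypes, against 0. The cause was not tested. In the fit with the replicate block, which pairs arrays by letter, 8 genes were called by temperature in pft1-1 (7 without it) and 6 in WT (4 without it), and 0 in the other comparisons.

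Of the 5 genes most like each described gene, 2 remained for AT5G48570 and 4 for AT5G51440 with letter means removed, and 1 for each with group means removed. With 3 arrays a group and AT5G51440 near the low end of the scale at 16C, small genotype differences were not detectable there.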
